A study of Mus musculus with 2 samples.

Results

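The genes described here encode 10 receptor chains through which CD8+ T cells receive IL-10, IL-12, IL-18, cytokines of the IL-6 family, interferon gamma and TGF-β: *Il10ra*, *Il10rb*, *Il12rb1*, *Il12rb2*, *Il18r1*, *Il18rap*, *Il6st*, *Ifngr1*, *Tgfbr1* and *Tgfbr2*. They were picked by gene symbol, and all 10 were found among 14732 symbols listed for at least 1 of the 2 libraries. The cells came from the spleen and lymph nodes of OT-I transgenic C57BL/6 mice of 6 to 8 weeks, in which the T cells carry a receptor for the OVA peptide SIINFEKL. After 24 h with peptide (2.5 ng/mL) and IL-2 (10 U/mL), the control group received the empty retroviral vector RVKM, which carries human CD2 behind an IRES, and the other group received the same vector with Eomes. In both groups, cells with human CD2 on the surface were sorted 48 h later and cultured at 40000 cells per well for 3 days, again with peptide and IL-2 at those doses. The sort marks cells that carry the vector, and how many mice were pooled is not given in the sources used here. Each group was sequenced as 1 library, so no replicate error exists, no difference was tested, and every value compares 2 libraries only.

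IL-10, IL-12, IL-18, interferon gamma and TGF-β each bind a receptor made of at least 2 different chains. The chains of the IL-10, IL-12, IL-6 family and interferon gamma receptors have no kinase of their own and signal through JAK kinases and STAT proteins. The IL-18 receptor belongs to the IL-1 receptor family and signals through Myd88 and IRAK kinases toward NF-κB, while the TGF-β receptors are kinases that phosphorylate SMAD proteins. In CD8+ T cells IL-12 and IL-18 are known to favor interferon gamma production, whereas IL-10 and TGF-β are known to restrain T cell responses.

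Transcript abundance is given as RPKM, reads scaled to transcript length and to the size of the library, as deposited by the authors. Log2 ratios are Eomes-overexpressing over control, so that a value above 0 means more transcript with Eomes. Genes that reached an RPKM of 1 in either library are called expressed here, which were 9925. *Eomes* itself had an RPKM of 2.47 with the empty vector and 129.6 with the Eomes vector, the direction the labels give. All 10 CD8 T cell genes examined were expressed, with *Cd8a* at 181.8 and 99.1, *Cd2* at 265.3 and 170.9 (log2 ratio -0.64, and -0.57 after centring by GC content) and *Cd3e* at 145.2 and 122.9. Of these 10 genes 8 were lower and 2 higher with Eomes, the latter being *Prf1* at 709.1 and 940.3 and *Gzmb* at 8306 and 8563 (log2 ratio 0.04, and -0.0095 after centring by GC content). Of 6 B cell markers, 2 were in neither library (*Ms4a1*, *Pax5*), and *Cd79b* was at 2.79 and 1.56. Of 10 macrophage and dendritic cell markers, 4 were in neither library (*Csf1r*, *Lyz2*, *Adgre1*, *Clec9a*), and the list summed to 6.13 RPKM without and 7.05 with Eomes overexpression, with *Xcr1* at 1.79 and 1.11 and *Cd68* at 2.68 and 4.59. Of 5 CD4 and regulatory T cell markers, *Cd4* and *Foxp3* were under 0.1 in both libraries, *Ikzf2* was at 0.51 and 0.33, *Cd40lg* at 0.41 and 0.08, and *Zbtb7b* at 13.8 and 11.6. Of 6 granulocyte and mast cell markers, 4 were in neither library. Among NK cell markers, which activated CD8+ T cells can share, *Ncr1* was in neither library, *Klrb1c* was at 0.31 and 5.74, *Gzma* at 490.4 and 1100, and *Klrc1* at 17.3 and 11.25. In bulk RNA, fewer cells with a transcript and less of it per cell cannot be told apart.

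The 10 receptor chains spanned an RPKM of 1.64 to 67.2. In control OT-I cells *Ifngr1* was the most abundant, followed by *Il12rb1*, *Il12rb2*, *Il18r1*, *Il10rb*, *Tgfbr2*, *Il18rap*, *Il10ra*, *Il6st* and *Tgfbr1*. The first 6 of these kept their places in Eomes-overexpressing cells, where *Il10ra* stood above *Il18rap* and *Tgfbr1* above *Il6st*. Some neighbors in the order were nearly level, such as *Il12rb1* and *Il12rb2* in control (50.4 and 49.2) or *Tgfbr1* and *Il6st* in Eomes-overexpressing cells (1.98 and 1.97), and no spread over samples exists to separate them.

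**Figure D1:**
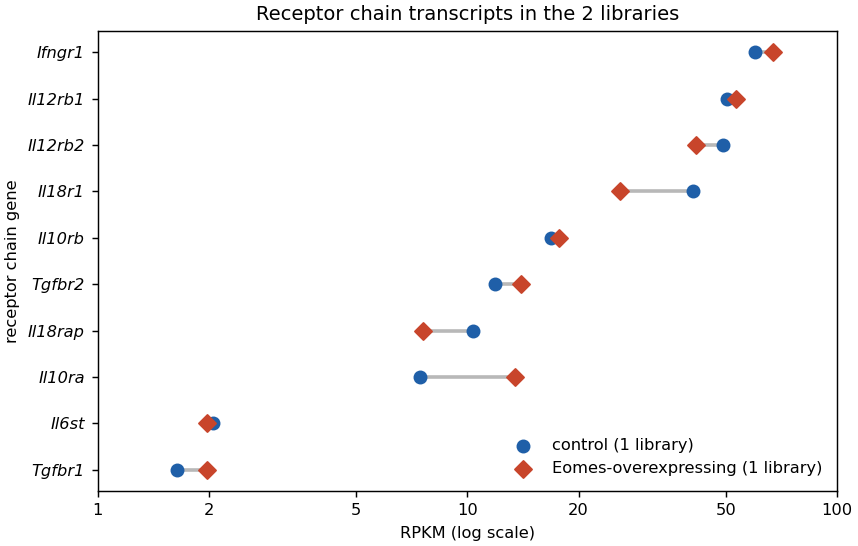
RPKM (horizontal axis, log scale) of the 10 receptor chains in the control library (circles) and the Eomes-overexpressing library (diamonds), 1 library each, with a line joining the values of a gene. The widest gaps are those of *Il10ra*, from 7.44 to 13.4, and *Il18r1*, from 40.7 to 25.9, and the other chains lie closer together.

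With Eomes overexpression, *Il10ra* was 1.81-fold higher and *Il18r1* was 1.57-fold lower. These were the only receptor chains of the 10 that differed by more than 1.5-fold, the fold limit named in the methods of the study. Those methods also set an FDR limit, which was not applied here. Across all expressed genes, 2.46% were past 1.5-fold in the higher and 5.19% in the lower direction, and 1 chain of 10 in each direction exceeds those shares by a single gene. At a 2-fold limit, which 0.695% of expressed genes passed in the higher and 1.76% in the lower direction, 0 of 10 chains were past it. Of the other 8 chains 5 were higher and 3 lower, all within 1.5-fold. The median log2 ratio of the 10 chains was 0.08, beside -0.0037 over all expressed genes.

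In place of a replicate error, each chain was set beside the 500 expressed genes nearest to it in mean log2 RPKM, as a description of how far genes at that level spread between these libraries. Only *Il10ra* and *Il18r1* lay outside the central 95% of their 500 genes. Those ranges ran from -0.61 to 0.51 for *Il10ra* and from -0.48 to 0.41 for *Il18r1*, while the low abundance of *Il6st* gave a range of -1.24 to 0.91.

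**Figure D2:**
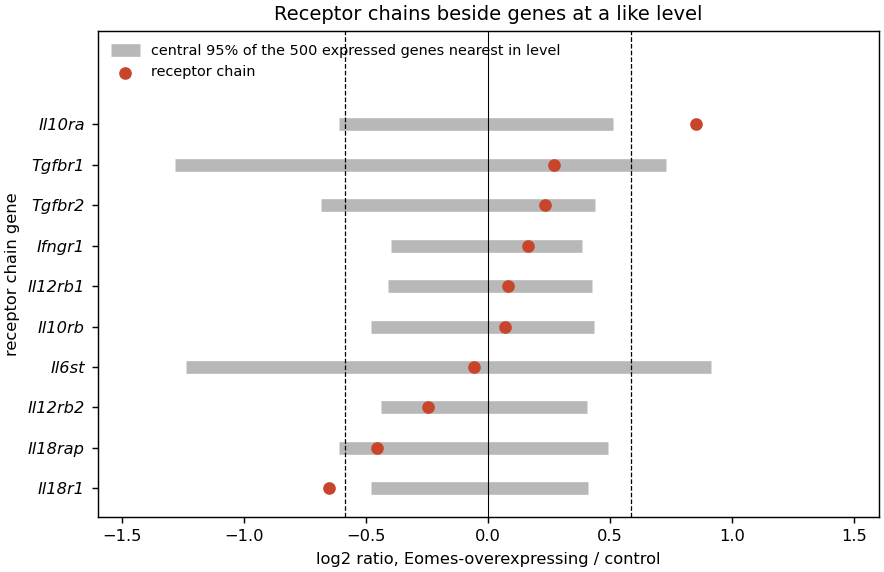
Log2 ratio of each receptor chain (points, horizontal axis) beside the central 95% of log2 ratios of the 500 expressed genes nearest to it in level (gray bars); dashed lines mark 1.5-fold. *Il10ra* at 0.85 and *Il18r1* at -0.65 lie outside their bars, and the other 8 chains lie inside.

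*Il10ra* encodes the chain that binds IL-10 and recruits JAK1, and lies on the minus strand of chromosome 9 of mm10, from 45253837 to 45269149. Control cells held it at 7.44 RPKM and Eomes-overexpressing cells at 13.4, giving a log2 ratio of 0.85, and 99.4% of the 500 genes nearest in level had a lower one. *Il10rb*, on the plus strand of chromosome 16 from 91406164 to 91425834, encodes the second chain, which is shared with the receptors for IL-22 and interferon lambda. Its RPKM was 16.9 and 17.7, a log2 ratio of 0.07. The abundance of *Il10ra* was thus 44.0% of that of *Il10rb* in control and 75.9% in Eomes-overexpressing cells, and it was the binding chain that differed between the libraries. In the annotation, 14.9% of the exon bases of *Il10rb* are also in the exons of the readthrough gene *Gm21970*, which has no value in either library.

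*Il10*, the ligand, had the opposite direction from *Il10ra*. It stood at 10.4 RPKM without and 7.14 with Eomes overexpression, a log2 ratio of -0.55, which is under 1.5-fold, and of -0.65 after centring by GC content, which is past it. The other chains that pair with *Il10rb* were scarce. *Ifnlr1* was at 0.03 in control with no value listed for Eomes-overexpressing cells, and *Il22ra1* was in neither library.

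Among 11 expressed genes known to respond to IL-10 or IL-6 family cytokines, 1 was more than 1.5-fold lower and none was more than 1.5-fold higher. In all 4 were higher and 7 lower, and their median log2 ratio was -0.06. Over all expressed genes, 5.19% were more than 1.5-fold lower and 2.46% higher, so 1 lower and none higher of 11 is near those shares. *Socs3*, a feedback inhibitor that STAT3 induces, was at an RPKM of 6.42 and 7.49 (log2 ratio 0.22), *Bcl3* at 21.8 and 23.6, and *Prdm1*, which encodes Blimp-1, at 15.0 and 17.0. *Pim1*, the most abundant of them, was at 214.6 and 207.6. Also lower were *Batf*, at 135.7 and 111.5 (-0.28), and *Cd274*, at 2.92 and 2.38 (-0.30). The gene past the limit was *Il4ra*, which encodes a chain of the IL-4 receptor, at 42.5 and 27.1 (log2 ratio -0.65, and -0.56 after centring by GC content).

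*Il12rb2* of the IL-12 receptor and *Il18r1* and *Il18rap* of the IL-18 receptor were all lower with Eomes, only *Il18r1* past 1.5-fold. The sequences upstream of them are shown for that reason. They are from RefSeq on GRCm38.p6, the build called mm10, written 5′ to 3′ on the strand of the gene and ending at the base before the annotated start. For *Il18r1* the stretch is all 136 bases between the annotated end of *Il1rl1* and its own start, chr1:40465416-40465551. For *Il18rap* it is chr1:40515112-40515361, and for *Il12rb2* it is chr6:67376189-67376438 on the minus strand. Capitals mark a STAT motif, TTCNNNGAA.
Il18r1: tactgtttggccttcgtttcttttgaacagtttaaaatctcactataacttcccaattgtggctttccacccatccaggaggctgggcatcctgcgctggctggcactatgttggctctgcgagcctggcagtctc
Il18rap: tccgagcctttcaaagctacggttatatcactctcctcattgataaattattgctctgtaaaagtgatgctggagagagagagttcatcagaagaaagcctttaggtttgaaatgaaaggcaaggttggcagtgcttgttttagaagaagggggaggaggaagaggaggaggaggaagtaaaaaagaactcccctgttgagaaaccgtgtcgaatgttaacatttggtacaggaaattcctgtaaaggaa
Il12rb2: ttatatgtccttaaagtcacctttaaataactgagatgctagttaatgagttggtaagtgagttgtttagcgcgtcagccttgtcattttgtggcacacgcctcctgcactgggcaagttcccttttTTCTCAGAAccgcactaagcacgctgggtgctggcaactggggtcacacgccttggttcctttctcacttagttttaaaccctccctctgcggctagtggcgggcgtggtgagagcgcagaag

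The 250 bases upstream of 32851 RefSeq start sites, which include 10 start sites of 7 of the receptor chains, were searched on both strands. *Il10ra*, *Il10rb* and *Il12rb1* had no start site among these, so the search says nothing about them. The T-box motif GGTGTGA, of the kind that Eomes and T-bet bind, was found at 3.33% of all start sites and at none of the 10. The STAT motif was found at 7.02% of all and at 2 of the 10, one for *Il12rb2* and another for a start site of *Il18r1* further into the gene. None of the 10 held the Runx motif TGTGGT, which was found at 14.05% of all start sites. The same was true of the AP-1 motif TGANTCA, found at 6.75% of all, and of the GATA motif AGATAA, found at 9.99% of all. The marked match overlaps no other motif searched. Motif matches describe letters in these windows and not binding.

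*Il12rb1* encodes the chain that IL-12 shares with the IL-23 receptor, and lies on chromosome 8 from 70808449 to 70821424. It was at 50.4 RPKM without and 53.3 with Eomes overexpression (log2 ratio 0.08). *Il12rb2*, on the minus strand of chromosome 6 from 67291318 to 67376188, encodes the chain through which IL-12 activates STAT4. Its RPKM was 49.2 and 41.5, a log2 ratio of -0.25, and 10.6% of the 500 genes nearest in level had a lower one. The chains were nearly level in control, with *Il12rb2* at 97.7% of *Il12rb1*, and *Il12rb2* was at 77.8% of *Il12rb1* with Eomes. In the annotation, 40.04% of the exon bases of *Il12rb2* also lie in exons of *Serbp1*, which is on the opposite strand and was at 142.3 and 149.9. Whether reads were counted by strand is not stated, so reads of both genes over these bases cannot be told apart.

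*Stat4*, the transducer of IL-12, was at an RPKM of 22.5 and 14.8. Its log2 ratio of -0.60 came under 1.5-fold with a pseudocount of 1 (-0.57) and with scaling to TPM. *Tyk2* and *Jak2*, the kinases bound to the IL-12 receptor, were at 27.4 and 23.7 and at 5.39 and 6.11, with log2 ratios of -0.21 and 0.18. The abundance of the transducer thus differed more than that of either receptor chain. Among the ligands, *Il12a* was at 0.08 and *Il12b* at 0.02 in control, and neither was listed for Eomes-overexpressing cells. *Il23a*, a subunit of IL-23, was at 6.81 and 3.73, and *Il23r* was in neither library. *Ebi3*, a subunit of IL-27 and IL-35, was at 15.3 and 9.0 (log2 ratio -0.76).

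*Il18r1* encodes the chain that binds IL-18, and *Il18rap* the accessory chain needed for signaling. They lie next to each other on the plus strand of chromosome 1, from 40465552 to 40500854 and from 40515362 to 40551705, with 14.5 kb between them. *Il18r1* was at 40.7 RPKM without and 25.9 with Eomes overexpression, giving a log2 ratio of -0.65, and 1.0% of the 500 genes nearest in level had a lower one. The RPKM of *Il18rap* was 10.4 and 7.58, a log2 ratio of -0.45, with 5.6% of the nearest genes lower. Both chains were therefore lower with Eomes, *Il18r1* past and *Il18rap* within 1.5-fold. *Il18rap* remained the scarcer chain, at 25.5% of *Il18r1* in control and 29.2% in Eomes-overexpressing cells.

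*Il10ra* and *Il18r1* had the highest and the lowest log2 ratio of the 10 chains. Ratios to *Il10ra* were chosen after the values were seen, and they restate the log2 ratios above. The abundance of *Il18r1* was 5.47 times that of *Il10ra* in control and 1.93 times in Eomes-overexpressing cells. For *Il12rb2* the same ratio was 6.62 and 3.09, where *Il12rb2* itself had a log2 ratio of -0.25 and *Il10ra* one of 0.85. By RPKM in both libraries, the genes nearest to *Il10ra* were *Pak6*, *Tnfsf9* and *Tec*, within a distance of 0.13 on the log2 scale, and those near *Il18r1* included *Il4ra* and *Cnp*, within 0.12. This likeness rests on 2 libraries.

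*Il18r1* and *Il18rap* belong to a cluster of 6 receptor genes of the IL-1 family that spans 477.6 kb of chromosome 1, from 40074079 to 40551705. All 6 genes had a lower RPKM in Eomes-overexpressing cells. *Il1r2*, which encodes a decoy receptor for IL-1, was at 1.88 and 0.34, a log2 ratio of -2.47. *Il1rl2*, which encodes the IL-36 receptor, was at 1.54 and 0.62 (log2 ratio -1.31), and *Il1rl1*, which encodes the IL-33 receptor ST2, was at 7.55 and 4.44 (-0.77). *Il1r1*, the signaling receptor for IL-1, was near the lower end of detection at 0.13 and 0.02 and was not counted as expressed. Of the 5 expressed genes 4 were more than 1.5-fold lower, and the exception was *Il18rap*. These counts are not independent of the receptor chains, because *Il18r1* is 1 of the 4 and led to this window. Of the 5 other expressed genes within 500 kb of its start site, 3 were more than 1.5-fold lower, beside 5.19% of all expressed genes. After centring by GC content the 6 log2 ratios ran from -2.81, for the scarce *Il1r1*, to -0.54. With a pseudocount of 1, *Il1r2* was at -1.10, *Il1rl2* at -0.65 and *Il1r1* at -0.15. The same 4 expressed genes stayed more than 1.5-fold lower with that pseudocount.

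Few genes beside the cluster can be compared with it. Toward lower coordinates the nearest expressed gene was *Map4k4*, at 23.7 and 21.4 (log2 ratio -0.15). Toward higher coordinates *Slc9a2* and *Mfsd9* were under 1 in both libraries (0.03 and 0.06, 0.62 and 0.53), so that side holds no expressed gene within 500 kb. *Il1rap*, the accessory chain of the receptors for IL-1, IL-33 and IL-36, is not part of the cluster and was at 1.41 and 1.82, a log2 ratio of 0.37. *Sigirr*, an inhibitory receptor of the family, was at 46.0 and 36.1 (-0.35).

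*Il10ra* stood in a different setting. Of 11 other expressed protein-coding genes within 500 kb of its start site, 9 were lower and 2 higher in Eomes-overexpressing cells, and 3 were more than 1.5-fold lower. The adhesion genes *Mpzl2* (3.43 and 2.11), *Mpzl3* (10.7 and 6.63) and *Jaml* (23.7 and 17.6) and the T cell receptor components *Cd3g*, *Cd3d* and *Cd3e* all had log2 ratios between -0.70 and -0.24. The window was drawn around *Il10ra* because that chain was more than 1.5-fold higher. None of the other 11 was, and over all expressed genes 2.46% were past that limit higher and 5.19% lower. In a window this small, none higher is near that share.

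**Figure D3:**
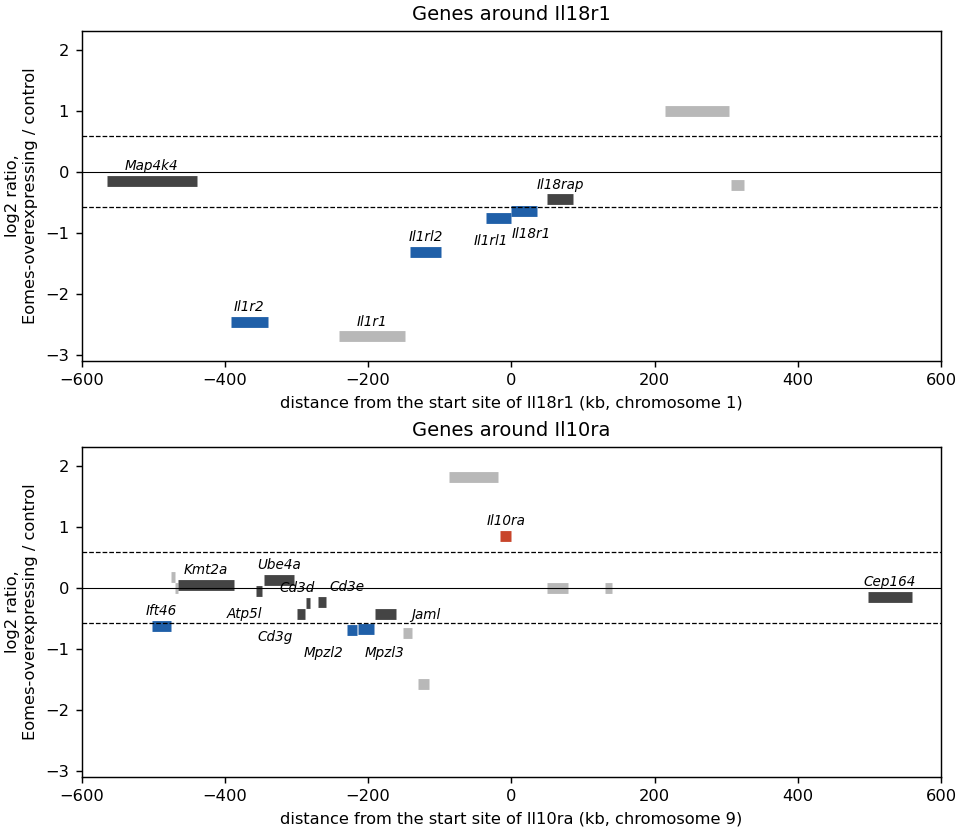
Log2 ratio (vertical axis) of protein-coding genes within 500 kb of the start sites of *Il18r1* (top) and *Il10ra* (bottom), drawn as bars from gene start to gene end in kb from that start site (blue, more than 1.5-fold lower; red, more than 1.5-fold higher; dark gray, within 1.5-fold; light gray, under an RPKM of 1 in both libraries; genes without a value in both libraries left out). The 6 receptor genes from *Il1r2* to *Il18rap* lie below 0, while *Il10ra* at 0.85 lies above neighbors that are mostly below 0.

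Downstream of the IL-18 receptor, *Myd88*, the adaptor, was at an RPKM of 46.6 and 40.4 (log2 ratio -0.21) and *Nfkb1*, the most abundant of 13 expressed transducers, at 148.3 and 146.9. Of the 13, 1 was more than 1.5-fold lower (5.19% over all expressed genes) and none more than 1.5-fold higher (2.46%). Their median log2 ratio was -0.09. The lower gene was *Irak2*, a kinase of the Myd88 complex, at 5.75 and 3.39 (-0.76). *Il18* itself was at 0.39 and 0.36, and *Il18bp*, which encodes its soluble inhibitor, was at 1.15 and 1.01.

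Among 12 expressed genes known to respond to IL-12 or IL-18, which include the 3 chains *Il12rb2*, *Il18r1* and *Il18rap*, 3 were more than 1.5-fold lower, none was more than 1.5-fold higher, and the median log2 ratio was -0.21. *Il18r1* itself is 1 of those 3 lower genes, so the count and the median are not independent of the chains. Past the same limit were 5.19% of all expressed genes in the lower and 2.46% in the higher direction. *Tbx21*, which encodes T-bet, was at an RPKM of 41.0 and 21.6 (-0.92), and *Lgals3*, which encodes galectin-3, at 215.1 and 141.3 (-0.61, and -0.50 after centring by GC content). *Ifng*, the cytokine that IL-12 and IL-18 induce together, was at 1343 and 1357, a log2 ratio of 0.02. *Gadd45g*, which is induced by the same pair of cytokines, was at 67.4 and 98.2 (0.54, and 0.63 after centring by GC content, which is past 1.5-fold), and *Gzmb*, the most abundant of the list, at 8306 and 8563.

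*Ifngr1* encodes the chain that binds interferon gamma and lies on chromosome 10 from 19591949 to 19610229. It was at 59.9 RPKM without and 67.2 with Eomes overexpression (log2 ratio 0.16). *Ifngr2*, the chain needed for signaling, was far scarcer. Its RPKM of 1.14 and 0.63 was 1.90% and 0.938% of that of *Ifngr1*, and its log2 ratio of -0.86 became -0.39 with a pseudocount of 1. The chains therefore had opposite directions, on a scarce chain whose difference depends on the pseudocount.

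Of 15 expressed genes known to respond to interferon gamma, 2 were more than 1.5-fold lower and none more than 1.5-fold higher, with 12 lower and 3 higher in all and a median log2 ratio of -0.25. *Gbp2*, a guanylate-binding protein gene, was at 8.97 and 3.52 (-1.35), while its relatives *Gbp4* and *Gbp7* were at 8.46 and 11.9 and at 5.35 and 7.52 (both 0.49). *Irf1*, a transcription factor induced early by interferon gamma, was at 21.6 and 14.1 (-0.62, and just within 1.5-fold with a pseudocount of 1 or centring by GC content). *Psmb8*, a subunit of the immunoproteasome and the most abundant of the list, was at 380.9 and 371.5.

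*Il6st* encodes gp130, the signaling chain shared by IL-6, IL-27, LIF and related cytokines, and lies on chromosome 13 from 112464070 to 112510086. It was among the scarcest chains, at an RPKM of 2.05 and 1.97 (log2 ratio -0.06). Of its partners only *Il27ra*, which encodes the specific chain of the IL-27 receptor, was abundant, at 28.6 and 24.7 (-0.21). *Il6st* amounted to 7.16% of *Il27ra* in control and 7.98% in Eomes-overexpressing cells, so the shared chain was the scarcer of the pair. *Il6ra* was at 0.18 and 0.01, *Lifr* at 0.18 and 0.48, and *Osmr* at 0.02 in control only. *Il11ra1*, a chain for IL-11, was at 1.17 and 0.48, a log2 ratio of -1.29 that became -0.55 with a pseudocount of 1. *Lif*, a ligand that uses gp130, was at 2.15 and 0.69 (-1.64), and *Osm*, which encodes oncostatin M, at 23.9 and 26.3.

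Of the STAT pathway as a whole, 11 genes were expressed, of which 1, *Stat4*, was more than 1.5-fold lower, beside 5.19% of all expressed genes. The median log2 ratio was -0.21. *Jak1*, the kinase used by the IL-10, gp130 and interferon gamma receptors, was at 33.2 and 40.6 (0.29), and *Stat3*, the main transducer of IL-10, at 64.97 and 55.8 (-0.22). *Ptpn6*, which encodes the phosphatase SHP-1, was the most abundant, at 194.5 and 146.3 (-0.41).

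*Tgfbr2* encodes the TGF-β receptor chain that binds ligand, and *Tgfbr1* the kinase it activates. *Tgfbr2*, on the minus strand of chromosome 9 from 116084293 to 116175360, had an RPKM of 11.9 and 13.95 (log2 ratio 0.23). *Tgfbr1*, on chromosome 4 from 47353222 to 47414931, had an RPKM of 1.64 and 1.98 (0.27, and 0.061 after centring by GC content). The scarcer *Tgfbr1* was 13.8% of *Tgfbr2* in control and 14.2% in Eomes-overexpressing cells, so the balance of these chains was nearly the same in both libraries. Both log2 ratios were within the range of the 500 genes nearest in level.

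The coreceptors differed from each other. *Eng*, which encodes the coreceptor endoglin, was at 8.64 and 3.71, a log2 ratio of -1.22, while the coreceptor *Tgfbr3* was at 2.06 and 1.99 (-0.05). *Tgfb1*, the ligand, was at 226.8 and 241.5 (0.09). Of 13 expressed SMAD pathway genes 1 was more than 1.5-fold lower (5.19% over all expressed genes) and none more than 1.5-fold higher (2.46%). In all 9 were higher and 4 lower, with a median log2 ratio of 0.14. *Smad3* was at 1.73 and 0.97 (-0.83, and -0.47 with a pseudocount of 1), *Smad2* at 4.24 and 4.95 (0.22), *Smad4* at 12.1 and 13.3 (0.14), and the inhibitory *Smad7* at 1.80 and 2.48 (0.46). The adaptor *Tab2* was the most abundant, at 25.3 and 29.3.

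Among 12 expressed genes known to respond to TGF-β in T cells, 4 were more than 1.5-fold lower and 1 was more than 1.5-fold higher. The shares over all expressed genes were 5.19% and 2.46%. The median log2 ratio of the 12 was -0.15. *Pmepa1*, which TGF-β induces and which restrains SMAD signaling, was at 9.43 and 4.09 (-1.21). *S1pr1*, a receptor for lymph node egress that TGF-β is known to lower, was at 3.66 and 1.6 (-1.19), and *Ctla4*, an inhibitory receptor, at 134.3 and 69.4 (-0.95). The inhibitors of DNA binding had opposite directions, *Id3* at 4.4 and 1.83 (-1.27) and *Id2* at 56.3 and 123.6 (1.13). Genes that TGF-β is known to raise and genes it is known to lower were therefore both among those with lower abundance. *Itgae*, which encodes the CD103 integrin chain, was at 0.58 and 0.17.

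**Figure D4:**
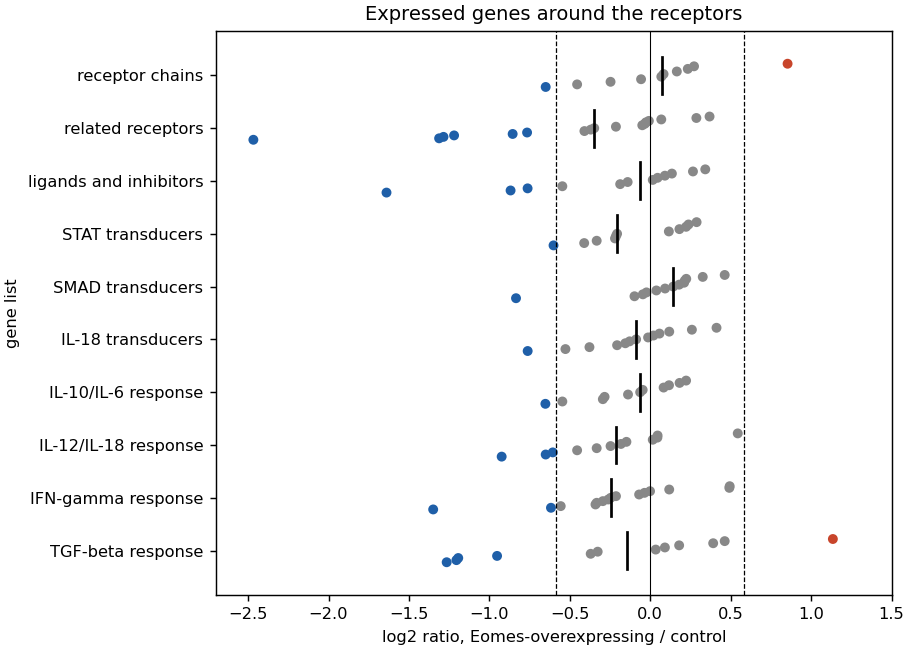
Log2 ratios (horizontal axis) of the expressed genes of each list, 1 point per gene, with the median as a black bar and 1.5-fold as dashed lines (blue, more than 1.5-fold lower; red, more than 1.5-fold higher); some genes are in more than 1 list. Apart from *Il10ra* among the receptor chains, only *Id2* among the TGF-β response genes lies above 1.5-fold. Of all expressed genes, 2.46% were past that limit in the higher direction.

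Over 28 partner and related receptors, 17 were expressed. Of these 6 were more than 1.5-fold lower (*Il1r2*, *Il1rl2*, *Il11ra1*, *Eng*, *Ifngr2* and *Il1rl1*) and none was more than 1.5-fold higher, with a median log2 ratio of -0.35. Beside these counts, 5.19% of all expressed genes were past that limit lower and 2.46% higher, so none higher of 17 is near that share. *Il21r*, which encodes the IL-21 receptor, was the most abundant, at 103.8 and 78.1 (-0.41). The chains of the type I interferon receptor were nearly level, *Ifnar1* at 8.54 and 8.34 and *Ifnar2* at 12.7 and 12.6. Of 12 expressed ligands and soluble inhibitors 3 were more than 1.5-fold lower (*Lif*, *Il23a* and *Ebi3*) and none was more than 1.5-fold higher, with a median log2 ratio of -0.06. The same shares over all expressed genes stand beside these counts. Several of the receptors past the limit had an RPKM near 1, where the 500 genes nearest to *Tgfbr1* in level held 65 that were more than 1.5-fold lower and 22 that were more than 1.5-fold higher.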

How the data were processed

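Total RNA of control and Eomes-overexpressing OT-I cells was sequenced by the authors, 1 library each. Per the labels and methods, reads were filtered with SOAPnuke and mapped to mm10 with HISAT (HISAT2 in the submitters' processing notes) and Bowtie2, and RSEM computed expression; versions and strand setting are not given in the sources used here. The authors deposited FPKM values, which their methods call RPKM, printed with 2 decimals from 0.01 upward (14110 genes for control and 13966 for Eomes-overexpressing cells, after 20 and 19 symbols turned into dates were left out). The files give no counts or depth, and a search of the low values for steps of single reads found no clear step, so depth is unknown and no counting interval is given.

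Log2 ratios were computed with Python 3.11.15, numpy 2.4.6 and pandas 2.3.3, with values under 0.01 set to 0.01, and figures with matplotlib 3.10.9. Ratios with unlisted values are not printed. Positions, exons and GC content of the longest transcript came from GENCODE vM21 on mm10 (99.1% of expressed genes matched by symbol). The steps were run on simulated data with planted differences well past 1.5-fold, less noise than these libraries show and no genes near an RPKM of 1. That run therefore says nothing about calls near the limit or at low RPKM. The receptor chains and gene lists were chosen with earlier results of these data known, and the 500 kb windows, the motifs and the pairs of chains after values were seen. Named genes are all receptor chains, list genes past 1.5-fold, the most abundant gene of each list, subunit partners and transducers, and the 3 genes nearest in both RPKM values to each chain past 1.5-fold. A few genes that these rules name are not reported here. Others, such as response genes and ligands named for their role, were chosen after their values were seen. Alternatives were a pseudocount of 0.1 or 1, scaling to TPM, centring on the median, a trimmed mean or 20 bins of GC content, a 2-fold limit, and no minimum RPKM or 5.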

Additional observations from a re-analysis of the deposited data

How the results depend on the processing

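No paired analysis was possible because each group is 1 library, and for the same reason no library could be left out. Each of the 10 receptor chains kept the sign of its log2 ratio under the 6 alternative pseudocounts, scalings and centrings. A pseudocount cannot change a sign. Scaling to TPM and centring on the median or a trimmed mean shift every gene by the same small amount. The sign was therefore open to change mainly with centring by GC content. *Il10ra* (0.77 to 0.94) and *Il18r1* (-0.76 to -0.62) stayed past 1.5-fold under each of the 6 alternatives. Log2 ratios moved by more than 0.1 only with centring by GC content, to -0.76 for *Il18r1*, 0.19 for *Il12rb1* and 0.061 for *Tgfbr1*. At a 2-fold limit 0 chains were past the limit in either direction.

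Over the gene lists without the receptor chains, 1 gene was past 1.5-fold higher and 21 lower. These became 2 higher with centring by GC content, 9 lower at a 2-fold limit, 9 higher and 38 lower without a minimum RPKM, and 13 lower with a minimum of 5. Of 180 counts for single lists, 152 stayed within 1.5 times and 28 did not. Many of the 152 were counts of genes higher that were 0 in both settings, which says little about stability. Over all expressed genes the 244 higher and 515 lower became 118 and 285 with a pseudocount of 1, 69 and 175 at 2-fold, 1356 and 2088 without a minimum and 95 and 213 with a minimum of 5. A 2-fold limit can only lower such counts, and a pseudocount of 1 draws every log2 ratio toward 0. The last 2 settings change which genes are counted. The cause of the other shifts was not tested. With unknown depth, differences between genes near an RPKM of 1 cannot be separated from counting error.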
